A study of Xenopus laevis with 46 samples.

Results

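The gene foxa4 of the frog Xenopus laevis is carried as 2 copies (homeologs), foxa4.L and foxa4.S. Both are rows of a table of 49233 gene names, measured in 46 libraries of RNA captured as newly made. The copies were chosen by name with their pattern over region and time already known, so their levels by region and time are given as a description, with no test. All embryos were wild type blastulae that had received 10 nl of 50 mM 5-ethynyl uridine (EU) at the 1-cell stage. For every library the final EU concentration is given as 0.5 mM and the temperature as 22 °C. EU is a uridine analog built into RNA as it is made, through which the RNA was tagged with biotin and captured. Whether RNA without EU was carried along was not tested. The vegetal pole (VP) and the animal pole (AP) were cut from such embryos at 5, 6, 7, 8 and 9 hours post fertilisation (hpf). Experiment 1 held 3 clutches, with 3 VP and 3 AP libraries at each of the 5 times, while experiment 2 covered 6 to 9 hpf in 1 more clutch, each region and time being measured in 2 technical replicates. Each value is a deposited normalised read count, rounded to a whole number and not divided by gene length.

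Forkhead proteins bind DNA through a winged-helix domain, and those of the FoxA class are known in vertebrates for opening chromatin at genes of endoderm and axial mesoderm. In Xenopus foxa4, also called pintallavis, is known from the Spemann organizer, the dorsal signalling centre of the gastrula, and later from the notochord and the floor plate of the neural tube. Its early transcription there is known to be induced by activin and Nodal-type signals and to be held back by bone morphogenetic protein (BMP) signals. VP cells form endoderm and send the Nodal signals that induce mesoderm, while AP cells form ectoderm. No protein or promoter sequence of either copy was used here.

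The libraries differed in how many genes they caught. Totals lay between 1783721 and 3273514 normalised reads, and the depth in raw reads is unknown. Between 4137 and 18199 genes per library were above 0 in experiment 1, and between 4364 and 21140 in experiment 2. The lowest counts of genes were those of VP at 8 hpf replicate 2 (4137) and of both VP libraries at 7 hpf of experiment 2 (7306 and 4364), and a value of 0 in these libraries rests on fewer detected genes. Markers of the vegetal pole (9 RNAs, among them vegt, gdf1, sox17a, gata6 and grip2) summed to 2697 to 18048 in the VP libraries and to 111 to 1446 in the AP libraries. Markers of prospective ectoderm (12 RNAs, among them foxi4.2, grhl3, tfap2a and cdh1) summed at 9 hpf to 3650 to 8345 in VP and 5067 to 23398 in AP, so they were present in both regions. Members of this list differed, as krt70.S and cdh1.S were at 0 in all 3 VP libraries of experiment 1 at 9 hpf. There krt70.S was lower than in AP (limma adjusted p = 0.014). For cdh1.S the limma adjusted p was 0.0116. However, cdh1.S was high enough to be tested only through AP at 9 hpf, the group where it is high. It therefore had to differ, and its call supports nothing.

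Both copies of foxa4 were silent or nearly so until 7 hpf, appeared in VP at 8 hpf and reached 1325 to 4880 normalised reads per copy in VP at 9 hpf. In experiment 1 foxa4.L and foxa4.S were listed at 0 in all 9 VP libraries from 5 to 7 hpf. At 8 hpf the VP values of foxa4.L were 410, 0 and 135 in replicates 1, 2 and 3, and those of foxa4.S were 340, 0 and 0. The 0 of both copies in replicate 2 at 8 hpf came from the library with 4137 genes above 0, against 16781 in replicate 1 and 12687 in replicate 3. At 9 hpf foxa4.L had 2880, 1667 and 2115 in VP (mean 2221 ± 613, SD, n = 3). At the same time foxa4.S had 2979, 1325 and 2061 in VP (mean 2122 ± 829, SD, n = 3). Replicate 1 was highest and replicate 2 lowest for both copies at 9 hpf, and no library at 8 hpf came near these values. The SD of the 3 VP libraries at 9 hpf was 27.6% of the mean for foxa4.L and 39.1% for foxa4.S.

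The clutch of experiment 2 showed the same order of times in VP. At 6 hpf replicate 4 held 14 of foxa4.L and 7 of foxa4.S, and replicate 5 held 0 of both. At 7 hpf both copies were at 0 in both libraries, which are those with few genes above 0. By 8 hpf foxa4.L stood at 611 and 566, and by 9 hpf at 4880 and 3749. Its homeolog foxa4.S held 342 and 308 at 8 hpf, then 3468 and 3121 at 9 hpf. The technical replicates therefore lay close together at 8 hpf, and the step between 8 and 9 hpf was many times their gap at 8 hpf. At 9 hpf their gap was wider, above all for foxa4.L, but still smaller than the step. The ratio of the VP mean at 9 hpf to that at 8 hpf was 7.33 for foxa4.L and 10.1 for foxa4.S in experiment 2, and 12.2 and 18.7 in experiment 1, where the 8 hpf means include libraries at 0. All 3 VP libraries at 9 hpf lay above all 3 at 8 hpf for both copies, a pattern found in 3.77% of the 19896 genes tested in experiment 1. The corresponding share with both technical replicates above in experiment 2 was 22.5%. The fitted difference, VP at 9 hpf minus VP at 8 hpf, was 5.82 ± 2.16 for foxa4.L and 8.17 ± 2.02 for foxa4.S (SE, n = 3 each) on the log2(count + 1) scale, where a library at 0 weighs heavily. Since the copies were picked for this pattern, nothing is read from these shares.

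**Figure D1:**
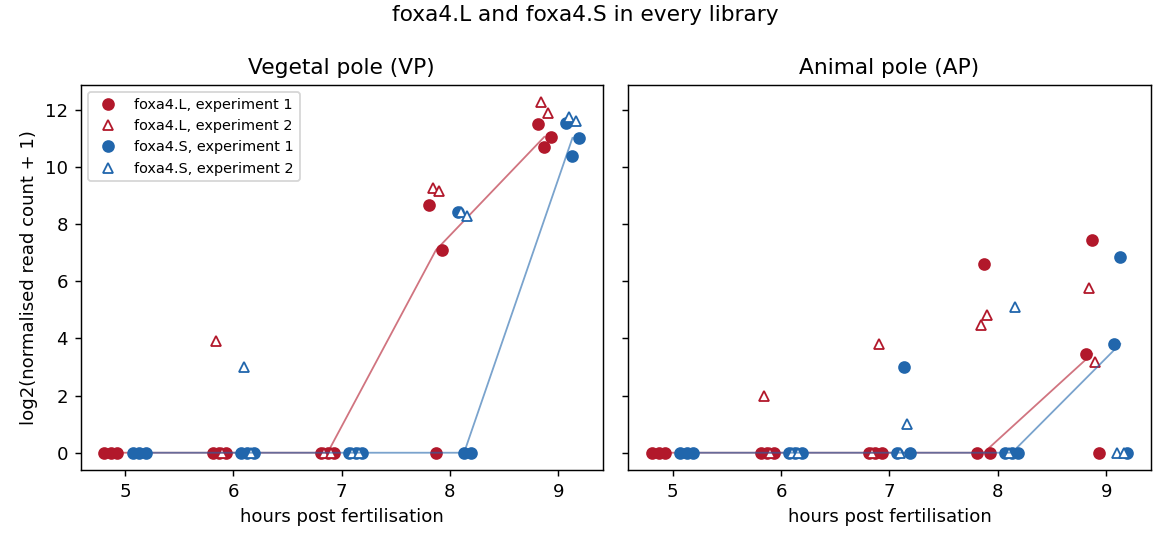
Normalised read counts of foxa4.L (red) and foxa4.S (blue) in all 46 libraries, as log2(count + 1) on the vertical axis against hours post fertilisation, with VP on the left and AP on the right. Filled circles are the clutches of experiment 1, open triangles are the technical replicates of experiment 2, and lines join the medians of experiment 1. VP libraries at 9 hpf hold 1325 to 4880 per copy, whereas no AP library exceeds 171.

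In AP foxa4 stayed low and patchy at every time. At 9 hpf the AP libraries of experiment 1 held 10, 171 and 0 of foxa4.L and 13, 114 and 0 of foxa4.S. Replicate 2 carried most of this signal. At 8 hpf foxa4.L had 0, 96 and 0 in AP and foxa4.S was at 0, and before that the only value above 0 in AP was 7 for foxa4.S in replicate 2 at 7 hpf. The technical replicates of experiment 2 gave foxa4.L in AP as 3 and 0 (6 hpf), 0 and 13 (7 hpf), 21 and 27 (8 hpf) and 53 and 8 (9 hpf). In those libraries foxa4.S reached 0 and 1 (7 hpf) and 0 and 33 (8 hpf), and it was at 0 in the AP libraries at 6 and 9 hpf. The AP libraries with the most foxa4 in experiment 1 were also those with the highest sums of vegetal markers. At 9 hpf the 3 AP libraries held 23, 285 and 0 of both copies together and 512, 1446 and 303 of the 9 vegetal markers. At 8 hpf they held 0, 96 and 0 of both copies together and 449, 1033 and 285 of the markers. How many of the markers were above 0 did not follow this order (5, 5 and 4 of 9 at 9 hpf, and 6, 4 and 4 at 8 hpf). Of the defining markers, grip2.L and gata6.S were at 0 in all 3 AP libraries at 9 hpf, while vegt.L was at 129, 290 and 107. The same replicate 2 libraries also held the most ectoderm markers of their groups, with sums of 5067, 21304 and 17890 at 9 hpf and 1580, 9148 and 3048 at 8 hpf. They also had the largest totals, 3063366 at 9 hpf and 2785801 at 8 hpf. Between the AP technical replicates of experiment 2 foxa4 and the vegetal markers ran in opposite order from 7 to 9 hpf. At 9 hpf these held 53 and 8 of both copies together and 480 and 582 of the markers. At 8 hpf they held 21 and 60, against 466 and 376, and at 7 hpf 0 and 14, against 331 and 208. Only at 6 hpf was the order the same, with 3 and 0 against 153 and 111. The part of vegetal cells or RNA, or of the totals, in the AP values of foxa4 was not tested. As these are bulk explants, fewer cells making foxa4 and less foxa4 RNA per cell cannot be told apart.

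Between the regions at 9 hpf the 2 copies differed alike. The fitted VP minus AP difference at 9 hpf was 7.45 ± 2.16 (SE, n = 3 each) on the log2(count + 1) scale for foxa4.L and 7.42 ± 2.02 (SE, n = 3 each) for foxa4.S. In order of size these were the 45th and 46th most positive differences among 19896 genes. Both sizes depend on the 0 in AP replicate 3 and on the 1 added to each value. All 3 VP libraries lay above all 3 AP libraries for both copies, as they did for 3.56% of the tested genes. In experiment 2 both VP libraries at 9 hpf also lay above both AP libraries, as for 19.0% of the same genes. At 8 hpf the fitted VP minus AP difference was 3.06 ± 2.16 (SE, n = 3 each) for foxa4.L and 2.80 ± 2.02 (SE, n = 3 each) for foxa4.S. The regions overlapped at 8 hpf in experiment 1 because of the VP libraries at 0. They did not overlap at 8 hpf in experiment 2, with 611 and 566 of foxa4.L in VP, against 21 and 27 in AP (both VP libraries were above both AP libraries for 15.0% of the tested genes).

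Ordered by their means of normalised reads, the groups of experiment 1 ran from VP at 9 hpf through VP at 8 hpf to AP at 9 hpf for both copies, and then to AP at 8 hpf for foxa4.L and AP at 7 hpf for foxa4.S. Only the first step was larger than the spread between libraries. The lowest VP value at 9 hpf was 1667 for foxa4.L and 1325 for foxa4.S, against highest values of 410 and 340 in VP at 8 hpf. Each later neighbour in this order overlapped with the next, and 6 groups for foxa4.L and 6 for foxa4.S were at 0 throughout. In experiment 2 the first 2 steps were clear of the technical spread. For foxa4.L these ran from VP at 9 hpf to VP at 8 hpf and on to AP at 9 hpf, and for foxa4.S the next place was held by AP at 8 hpf.

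The share of the pair that came from foxa4.L was compared between times, a ratio within each library that was not used to choose the gene. At 9 hpf in VP foxa4.L made up 49.2%, 55.7% and 50.6% of the reads of both copies in the clutches of experiment 1. The share was 58.5% and 54.6% in the technical replicates of experiment 2. At this time the copies thus held nearly equal parts in every VP library. At 8 hpf the foxa4.L share in VP was 54.7% in replicate 1 and 100% in replicate 3 of experiment 1, and 64.1% and 64.8% in experiment 2. The mean at 9 hpf was 51.8% ± 3.4 (SD, n = 3) and that at 8 hpf was 77.3% ± 32.1 (SD, n = 2), with replicate 2 at 8 hpf left out because both copies were at 0. The difference of -25.5 percentage points had p = 0.4 in an exact two-sided permutation test, whose smallest possible p with these libraries was 0.2. With so few libraries this test could not pass, so it does not say whether the share differed. The difference was -2.2 points without replicate 3. In experiment 2 it was -7.9 points, untested. Salmon divides reads that fit both copies by an estimate, so the split between near-identical stretches of the copies is uncertain. The counts are not per length, and a share of 50% does not mean equal numbers of molecules.

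In sum 20 of the 46 libraries held some foxa4, with foxa4.L above 0 in 19 and foxa4.S in 14. Of the libraries with a single copy above 0, 6 held foxa4.L alone and 1 held foxa4.S alone. All 7 were low, with 135 as their highest value.

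**Figure D2:**
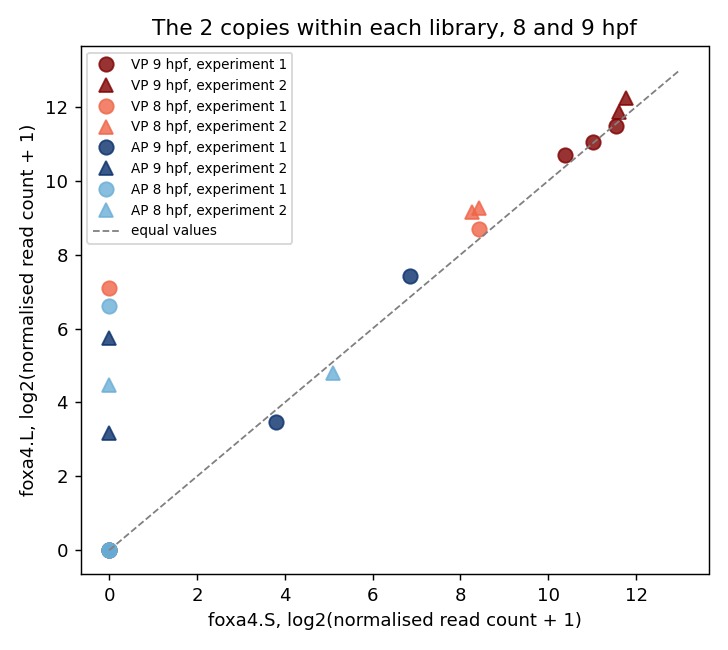
Value of foxa4.L (vertical) against foxa4.S (horizontal) in each library at 8 and 9 hpf, both as log2(normalised read count + 1), with circles for experiment 1 and triangles for experiment 2. The dashed line marks equal values. The 5 VP libraries at 9 hpf lie along it, with a foxa4.L share of 49.2% to 58.5%, and libraries at the left edge held foxa4.L alone or neither copy.

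The other FoxA genes of the table were scarce. Their 3 rows were foxa1.L, foxa1.S and foxa2.L, genes known in vertebrates for roles in endoderm and, for foxa2, the node, and foxa1.L alone reached 10 in 3 libraries of experiment 1. In experiment 1 at 9 hpf foxa1.L stood in VP at 109, 0 and 0, with 0 in each AP library. In experiment 2 the VP pair of 181 and 106 faced an AP pair of 37 and 40. At 8 hpf foxa1.L was higher in AP, with 25, 109 and 0 against 0 in VP in experiment 1. Experiment 2 then gave 30 and 19 in AP, against 6 and 5 in VP. At 7 hpf AP held 40 in replicate 3 and 21 in replicate 4, and VP held 101 in replicate 5. Between the regions at 9 hpf foxa1.L did not pass (log2 fold change 2.26 ± 1.47 (SE), limma adjusted p = 0.813). For foxa1.S the VP clutches at 9 hpf gave 191, 0 and 0, against 0, 0 and 7 for AP, and experiment 2 gave 233 and 193 for VP, against 0 and 16 for AP. The 9 hpf values of foxa2.L were 0 in VP and 14, 0 and 0 in AP in experiment 1, against 35 and 64 in VP and 0 in AP in experiment 2. Each was above 0 in both VP libraries at 9 hpf of experiment 2 and in at most 1 of the 3 in experiment 1. The difference between foxa4 and these genes was not tested.

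Genes known to act upstream of foxa4, beside it or against it were counted from lists of known roles, without foxa4 itself. Genes were called at an adjusted p under 0.05 in limma, a linear model fitted to all 19896 genes. Between VP and AP at 9 hpf 0.377% of the tested genes were called, 0.246% as higher in VP and 0.131% as lower. Of the Nodal inputs (ligands, co-receptors, receptors, Smads, the Smad partner foxh1 and the inhibitor lefty) 29 of 32 were tested, and 2 were higher in VP and 0 lower, with a median log2 fold change of 2.40, against -0.53 over all tested genes. Both were ligand genes. The VP clutches held 1495, 654 and 680 of nodal5.2.L at 9 hpf, against none in AP (adjusted p = 0.00787). Likewise 558, 318 and 734 of nodal6.L stood against none (adjusted p = 0.0225). Of the dorsal Wnt inputs 11 of 15 were tested and 1 was higher (median 4.51). This was hwa.L, the gene of a maternal activator of beta-catenin, at 1243, 937 and 2209 among VP clutches, against 66, 7 and 0 among AP clutches (a log2 difference of 7.40 ± 1.70 (SE) with an adjusted p of 0.0116). At 5 hpf hwa.L already stood at 2891, 3440 and 3014 in VP and at 72, 0 and 0 in AP. How much of its RNA was newly made was not tested.

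Among organizer partners of foxa4 25 of 32 were tested, and 3 were higher in VP and 0 lower (median 4.19). They were gsc.S and hhex.L, which encode homeobox factors, and frzb.S, which encodes a secreted Wnt inhibitor, all at 0 in AP at 9 hpf of experiment 1 (adjusted p = 0.0115 for gsc.S). In VP gsc.S had 1078, 150 and 437, frzb.S had 1017, 179 and 220 and hhex.L had 532, 76 and 403. As for foxa4, replicate 1 was the highest and replicate 2 the lowest of these. Of the endoderm factors 17 of 18 were tested and 5 were higher (median 5.00), the leading 4 being mixer.S and the GATA factor genes gata4.S, gata5.S and gata6.S. For mixer.S, a homeobox gene of endoderm, the VP clutches held 4257, 1167 and 2562, against 1, 0 and 0 for AP (adjusted p = 0.00283). For gata6.S they held 592, 111 and 376, for gata4.S 534, 109 and 202 and for gata5.S 42, 71 and 96, each against none in AP. These 3 GATA genes, frzb.S and hhex.L reached 10 in 3 libraries only through VP at 9 hpf, the group where they are high, so they had to differ, and their calls and the counts that hold them support nothing. This was so for 5 of the 25 organizer partners tested, 4 of the 17 endoderm factors and 1 of the 29 Nodal inputs. It was also so for 1 of the 27 genes of the BMP side and 0 of the 11 dorsal Wnt inputs. Among all 19896 tested genes 561 passed only in this way, and they held 20 of the 49 genes called as higher in VP. With at least 10 in at least 6 libraries 5 of the 10 named genes were called, namely gsc.S, hwa.L, mixer.S, nodal5.2.L and nodal6.L. Of these, gsc.S, mixer.S and nodal5.2.L reached 10 in 6 libraries of experiment 1 only through VP at 9 hpf. Their calls at this stricter filter likewise support nothing. The counts of these lists overlap with the vegetal markers, which also hold gata6, sox17a and vegt. On the BMP side, 27 of 30 genes were tested and limma called 0 in either direction (median 0.88). At an unadjusted p under 0.05, 3 of the 27 were higher and 0 lower, against 1431 of all 19896 genes in either direction. Higher at that level were 13 of 25 organizer partners and 11 of 17 endoderm factors. So were 10 of 29 Nodal inputs and 6 of 11 dorsal Wnt inputs, and 1 dorsal Wnt input was lower. Members tested only through VP at 9 hpf are in these counts too. Of the 10 genes named in these lists 0 were still called without replicate 1, 3 without replicate 2 and 0 without replicate 3. Over all tested genes these fits called 6, 38 and 1. They hold fewer libraries and fewer tested genes, and the cause of the lost calls was not tested. A model of the 6 libraries of experiment 1 at 9 hpf alone called 3 of the 10. As higher it called 4 Nodal inputs, 1 dorsal Wnt input, 1 organizer partner, 1 gene of the BMP side and 8 endoderm factors. As lower it called 1 Nodal input and 1 gene of the BMP side. Over all 19021 genes tested in that model 99 were called as higher and 62 as lower. With a pseudocount of 5 these lists, in the same order, gave 5, 2, 6, 1 and 9 higher, and 0 lower. Over all 19896 genes that setting called 116 as higher and 48 as lower, against 49 and 26 in the main fit. The calls in these lists thus depend on the setting.

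Within VP 1.25% of the tested genes were called between 9 and 5 hpf, 1.22% as higher at 9 hpf and 0.0302% as lower. Higher at 9 hpf were 14 of 17 endoderm factors, 13 of 27 genes of the BMP side, 8 of 25 organizer partners, 6 of 29 Nodal inputs and 1 of 11 dorsal Wnt inputs, and 0 members of these lists were lower. The members that were tested only through VP at 9 hpf are in these counts too. Within AP, 1.72% of the tested genes were higher at 9 hpf than at 5 hpf and 0.00503% lower. The lists gave 10 of 27 on the BMP side and 4 of 25 organizer partners as higher. They also gave 1 of 29 Nodal inputs, 1 of 17 endoderm factors and 0 of 11 dorsal Wnt inputs. At an unadjusted p under 0.05, 14 of 27 on the BMP side, 8 of 17 endoderm factors and 7 of 25 organizer partners were higher in AP. So were 2 of 29 Nodal inputs and 1 of 11 dorsal Wnt inputs. Each list gave 0 lower, against 2043 of all 19896 genes in either direction. A limma test of the VP change minus the AP change, 9 against 5 hpf, called 0 of the 19896 genes (1042 at an unadjusted p under 0.05). The list counts therefore do not show a rise confined to VP. Genes of the BMP side were called as higher with time in both regions. How many list members were tested only through AP at 9 hpf was not counted, and calls of such members in AP would support nothing. In VP the list counts without replicate 1 were 0 for each of these 5 lists, and without replicate 3 they were 1 for the BMP side and 0 for the other 4. Without replicate 2 they were 11, 5, 7, 5 and 1 in the order given. Over all tested genes, 4 of 17347 were called as higher in VP without replicate 1. Without replicate 2 it was 134 of 18461, and without replicate 3 it was 4 of 18852. With so few calls anywhere, nothing about the lists is read from their counts of 0. In AP the BMP side gave 1, 2 and 1 without replicates 1, 2 and 3, and the other 4 lists gave 0. Over all tested genes these AP fits called 43, 28 and 11 as higher. The comparison of regions at 9 hpf shares its VP libraries with the VP time comparison and its AP libraries with the AP one.

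The timing of foxa4 in VP was set beside that of these genes by the share of its own 9 hpf level that a gene had reached at 8 hpf, which does not depend on gene length. It is drawn from the same values for which foxa4 was chosen, and it describes them with no test. The VP mean of foxa4.L at 8 hpf was 8.18% of that at 9 hpf in experiment 1 and 13.6% in experiment 2, and that of foxa4.S was 5.34% and 9.86%. Without VP at 8 hpf replicate 2, the library with few genes, the shares in experiment 1 were 12.3% and 8.01%. Among the 4283 genes with a VP mean of at least 100 at 9 hpf in both experiments, the median share was 72.7% in experiment 1 and 84.8% in experiment 2. Of these genes 95.7% had a larger share than both copies in both experiments. In experiment 2 3.32% of these genes had a lower share than foxa4.L and 1.89% a lower share than foxa4.S, and in experiment 1 2.01% and 1.24% did. Nothing is read from these shares, or from counts of list members near them.

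Of 20 Nodal inputs at this level, 18 had a larger share than both foxa4 copies in both experiments, against 95.7% of all such genes, with medians of 44.6% in experiment 1 and 39.7% in experiment 2. The list mixes maternal RNAs with genes first transcribed in the blastula. Among the ligand genes nodal5.L stood at 46.5% and 43.3%, nodal6.L at 42.2% and 23.8% and nodal5.2.L at 30.5% and 20.6%. The other 2 inputs were also ligand genes, nodal1.L at 13.8% and 10.5%, between the copies in experiment 2, and nodal2.L at 32.4% and 7.03%, below both copies in experiment 2. The Nodal inhibitor gene lefty.L was closer to foxa4, at 12.9% and 16.9%, but its homeolog lefty.S stood at 21.6% and 30.4%. All 9 dorsal Wnt inputs lay above both copies in both experiments, as most genes did. The homeobox gene sia1.L (siamois), a direct target of maternal beta-catenin, was at 66.9% and 38.7%.

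Organizer partners and endoderm factors stood on either side of foxa4, with 11 of 20 and 10 of 16 above both copies in both experiments. The homeobox gene not.L (39.0% and 47.0%) and the BMP-type ligand gene admp.L (27.8% and 24.5%) were ahead of foxa4, as were mix1.L (31.5% and 19.8%) and sox17a.L (28.3% and 15.3%). The genes frzb.L (0% and 2.98%), gata5.L (0% and 8.37%) and gata6.L (0% and 4.17%) were below both copies in both experiments, and they were the only ones in these lists. Their VP means at 9 hpf in experiment 1 were low, at 158.7, 127 and 151.7 in this order. At 7 hpf in experiment 2 gata6.L had 0 and 504 in VP, in the libraries with few genes, where foxa4 was at 0. Above both copies in experiment 1 and below both in experiment 2 were lhx1.L (22.8% and 7.21%), lhx1.S (68.5% and 7.67%), otx2.L (9.17% and 2.39%) and hhex.L (8.80% and 4.47%) among organizer partners. So were mixer.S (15.8% and 9.67%) and gata4.S (9.47% and 1.92%) among endoderm factors. The 68.5% of lhx1.S rests on VP at 8 hpf replicate 2, the library with few genes, and was 20.4% without it. On the BMP side 18 of 22 lay above both copies, among them ventx2.2.S (24.8% and 34.3%), and szl.S (9.40% and 6.24%) was above them in experiment 1 and below them in experiment 2. Without VP at 8 hpf replicate 2 the numbers above both copies were 18 for the Nodal inputs, 9 for dorsal Wnt, 10 for organizer partners, 18 for the BMP side and 10 for endoderm factors, and 95.4% of all such genes. These shares were not tested, and the minimum mean of 100 was chosen after the values had been seen.

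**Figure D3:**
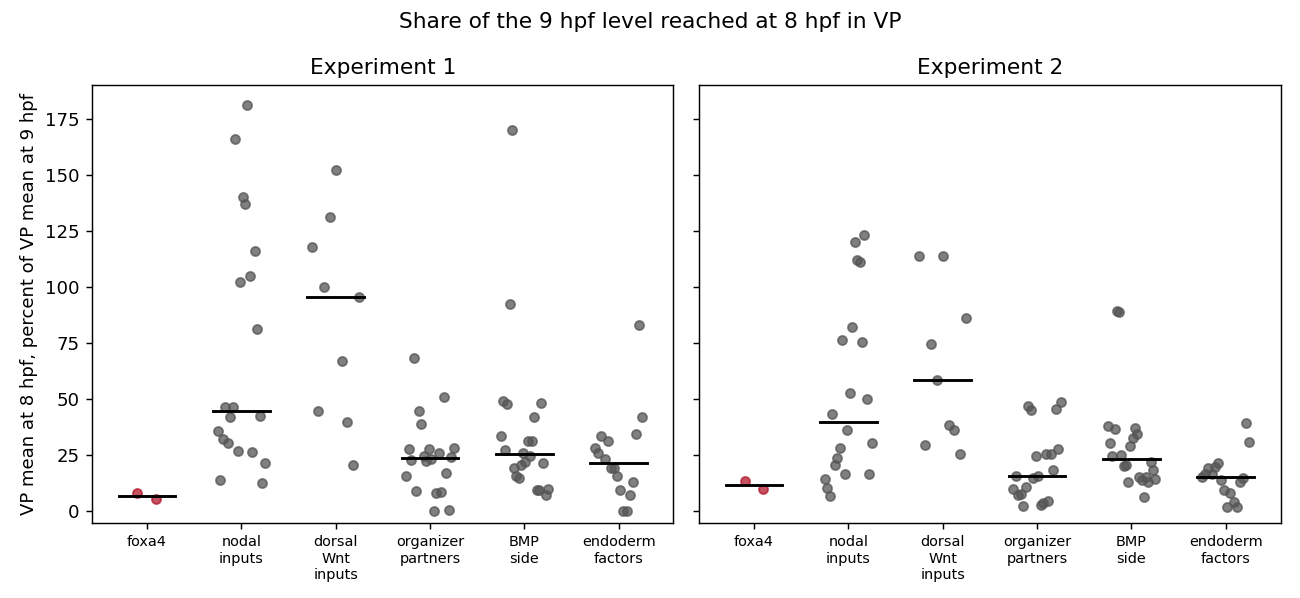
VP mean at 8 hpf as a percent of the VP mean at 9 hpf (vertical) for the foxa4 copies (red) and for list members with a VP mean of at least 100 at 9 hpf in both experiments (grey), with 1 point per gene. Black bars are medians, with experiment 1 on the left and experiment 2 on the right. The foxa4 points lie at 5.34% and 8.18% in experiment 1 and at 9.86% and 13.6% in experiment 2, below the median of every list.

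The genes whose pattern was most like each copy were found by the Pearson correlation of group means of log2(count + 1) over the 18 groups of experiment, region and time. These points share libraries and depth, and the correlations are descriptions. For foxa4.L the 10 most alike were cass4.L (r = 0.979), slc38a2.L, dlc.L, flrt3.L, lefty.L, flrt3.S, pnhd.S, msx1.S, ventx3.2.L and LOC108710377 (r = 0.959). They include the gene of the Notch ligand Delta-like C, both copies of the membrane protein gene flrt3, the Nodal inhibitor gene lefty.L and the secreted factor gene pnhd.S (pinhead). The VP values of cass4.L at 9 hpf were 2381, 764 and 558 in experiment 1 and 3450 and 2726 in experiment 2, and its AP values were 0, 151, 0, 173 and 16. Across the 5 libraries per region at 9 hpf flrt3.L gave 4236, 944, 1042, 4554 and 3766 for VP, against 17, 21, 0, 65 and 32 for AP, and at 8 hpf its VP values were 786, 0, 88, 332 and 283. Both genes were low in AP and highest in VP at 9 hpf.

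For foxa4.S the 10 were has2.S (r = 0.988), LOC108699131, wnt8a.S, LOC108705994, tmprss9.S, evx1.L, Xelaev18008648m, nodal.S, frzb.S and flrt3.S (r = 0.948). Among them has2 encodes a hyaluronan synthase, wnt8a a Wnt ligand of ventral and lateral mesoderm, and evx1 a homeobox factor of posterior mesoderm. The VP values of has2.S at 9 hpf were 795, 292, 200, 1216 and 978, and its AP values were 0, 51, 1, 0 and 0. At 8 hpf has2.S had 38, 0, 0, 39 and 65 in VP. For wnt8a.S the VP values at 9 hpf were 213, 531, 1023, 1274 and 1462. Other genes on this list were low, such as nodal.S, with at most 186 in any library, and their likeness rests on few reads. The lists of the copies shared 1 gene, flrt3.S. By this measure foxa4.S ranked 18th for foxa4.L, and foxa4.L ranked 12th for foxa4.S (r = 0.945). Over the 46 single libraries, a choice made after the values had been seen, each copy was the 7th most alike to the other (r = 0.895), and 4 of the 10 genes for foxa4.L and 6 of the 10 for foxa4.S were found again.

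**Figure D4:**
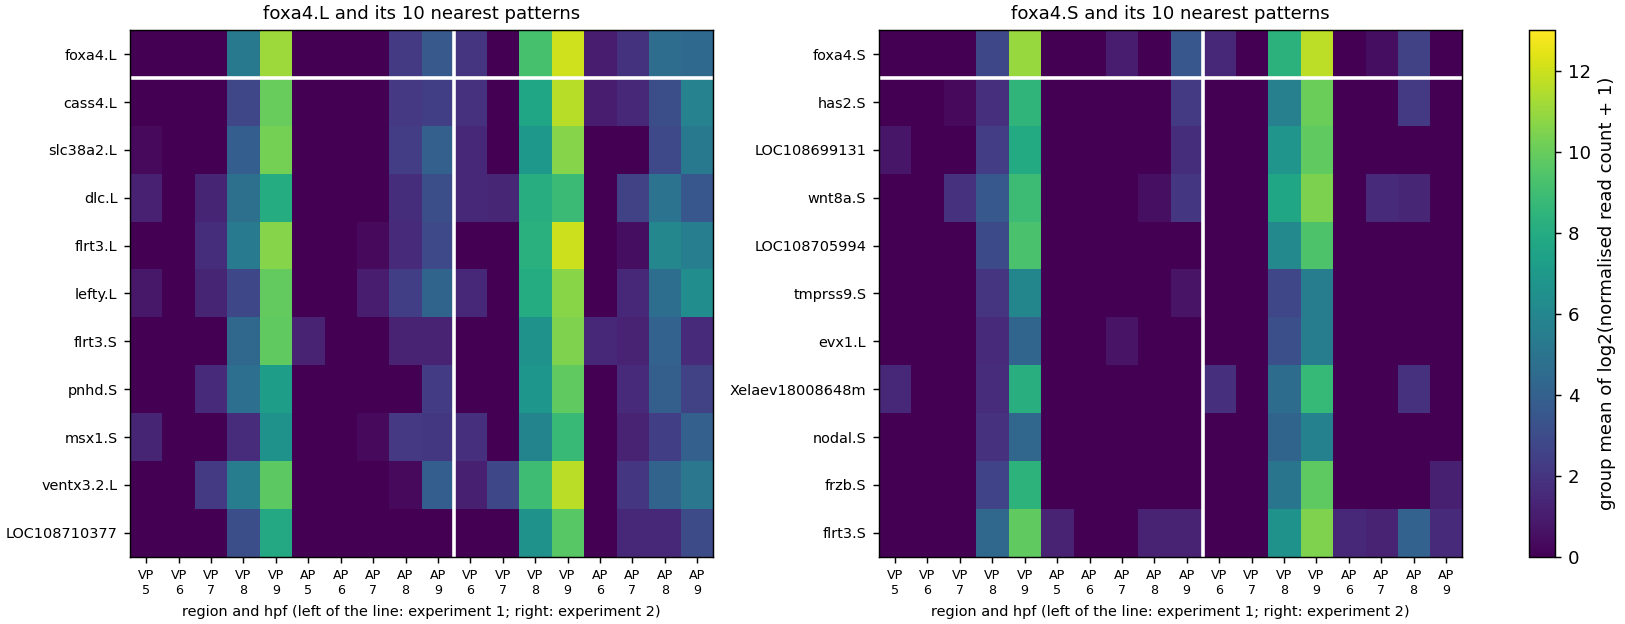
Group means of log2(normalised read count + 1), as colour from 0 to 13, for foxa4.L (left panel) and foxa4.S (right panel) in the top row and the 10 genes with the most similar pattern below, over 18 groups of region and hpf. The vertical white line divides experiment 1 from experiment 2. In each row the brightest cell of either experiment is VP at 9 hpf.

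Neighbouring genes did not share the level of foxa4 in VP at 9 hpf. The RefSeq table of the v10.1 assembly lists foxa4.L on chromosome 4L and foxa4.S on chromosome 4S, and it was used here for the order of genes only. Beside foxa4.L lie pmt.L and cd248.L on one side and rela.L, for a subunit of NF-kappa-B, and c11orf68.L on the other. Across all VP libraries at 9 hpf their highest values were 0 for pmt.L, 18 for cd248.L, 235 for rela.L and 40 for c11orf68.L. LOC108713950 was at 0 in every library. Beside foxa4.S, pmt.S reached 57, cd248.S 16 and rela.S 1 in VP at 9 hpf. LOC121393145 and LOC121393146 were not analysed here, and neither was a tRNA gene next to each copy, whose name is shared by 76 loci.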

How the data were processed

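The authors used Salmon 0.12.0 for quantification and DESeq2 for normalization, per the submitters' processing notes. The build, the annotation and the version of DESeq2 were in each case not given in the sources used here. Deposited values are a score, namely normalized read counts that the authors rounded to whole numbers. Recomputed median-ratio factors over 526 genes above 0 in all libraries were 1.012 to 1.136. The 50489 entries were summed by name to 49233, which merged 1256 entries into another of the same name. Neither foxa4 copy was touched. No raw counts were used, so count models, detection floors and intervals were not.

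The 19896 genes that reached 10 in 3 or more experiment 1 libraries were fitted as log2(value + 1) in limma 3.58.1 (R 4.3.3 with the package data.table, 1.17.8), with 1 coefficient per region and time over 30 libraries, a mean trend and robust settings. Tests were two-sided, with Benjamini-Hochberg adjustment over all tested genes. The fit was tested on simulated data, where it called only a minority of the genes given a change, so a gene that was not called may have changed. Experiment 2 was not tested, since its replicates are technical. The permutation test was exact (scipy 1.17.1). Other steps used pandas 2.3.3 and numpy 2.4.6 under Python 3.11.15, with figures from matplotlib 3.10.9.

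The copies, the lists, the tests and the naming rules were chosen with earlier results of these data known. Named were the foxa family, up to 4 called members per list and direction between regions at 9 hpf, the 10 genes most alike per copy and 3 neighbours per side. Genes named for the timing of their rise in VP were chosen after their values were seen. A planned search for promoter motifs was not run. P-values for experiment 1 rest on the spread between libraries of a group, in which differences between clutches and between library preparations cannot be told apart. Libraries of different groups were treated as independent.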

Additional observations from a re-analysis of the deposited data

How the results depend on the processing

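The fitted VP minus AP differences of both foxa4 copies at 9 hpf kept their direction under a pseudocount of 5, another scaling, the replicate block and each left-out replicate, from 5.63 to 9.54. Counts of called genes were less stable. Between regions at 9 hpf 75 genes were called, against 164 with a pseudocount of 5, 233 with no filter (103 higher and 130 lower), 28 with at least 10 in at least 6 libraries (25 higher and 3 lower) and 161 with only the 2 groups compared. Of the 75 genes, 75, 71, 27 and 17 were among these calls, in this order. Without replicates 1, 2 and 3, the calls held 2, 15 and 1 of the 75. In VP between 9 and 5 hpf 249 were called, and 403 with a pseudocount of 5. In AP 343 were called, and 555 with no filter. Leaving out 1 replicate gave 1 to 38, 4 to 177 and 11 to 44 genes in the 3 comparisons. The cause was not tested, though fewer samples and fewer tested genes are part of these settings. Leaving out replicate 2 of VP at 8 hpf gave 76, 296 and 398. Residual correlations between VP and AP libraries of equal replicate number were -0.024 to 0.103 (median 0.028, 15 pairs). For unequal numbers they were -0.113 to 0.078 (median -0.013, 30 pairs). The labels do not say whether equal numbers mark the same clutch, and correlations this small cannot decide it. With the replicate block the counts were 94, 311 and 448. The foxa4.L share difference between 9 and 8 hpf was -25.5 points, -46.8 to -2.2 with 1 replicate left out and -7.9 in experiment 2. Its form as a log2 ratio gave -3.57, in the same direction. Scaling to equal totals moved the median of all genes by 0.11 between regions and by -0.15 in AP between 9 and 5 hpf (log2). Libraries at 0 limit the precision of the values at 8 hpf.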
